A study of Mus musculus with 15 samples.

Results

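Complement components and their receptors, 9 genes in all, were followed across 15 RNA libraries of cells isolated from mouse brain for PDGFRβ, a growth factor receptor found on mural cells of vessels and on fibroblasts. The genes were C1qa, C1qb and C1qc, which encode the chains of C1q; C1ra, which encodes the protease C1r; C3 and C4b, which encode the central component and a C4 protein; C3ar1 and C5ar1, which encode the receptors for the fragments C3a and C5a; and Serping1, which encodes C1 inhibitor. They were chosen by name, their Gene IDs were matched to the deposited table, and all 9 were found among the 17892 genes with values and among the 14853 genes that passed the filter on low counts. The libraries fall into 4 groups by genotype and treatment. Wild-type mice given the sham procedure (WT sham) had 3 libraries, numbered 1, 2 and 3, and wild-type mice after neonatal hypoxia-ischemia (WT HI) had 4, numbered 1, 2, 4 and 5. Mice with a knockout of the microRNA miR-210 had 4 libraries after sham (KO sham, numbered 1, 3, 4 and 6) and 4 after hypoxia-ischemia (KO HI, numbered 1 to 4). The HI libraries were taken 24 h after the injury. The labels do not give the exact age, the design of the knockout allele, the time of the sham libraries or whether a library came from 1 animal or from a pool, so p-values measure the spread between libraries, part of which may be technical.

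Complement is a cascade of proteins that marks cells, debris and microbes and calls in phagocytes. In the classical pathway C1q binds the target and switches on the proteases C1r and C1s, which cleave C4 and C2, and the enzyme that results splits C3. C1 inhibitor shuts C1r and C1s off again, while C3a and C5a, the small fragments released further down, act on leukocytes and glia through their receptors. In brain, C1q is made mainly by microglia, the resident macrophages, whereas C1r, C4 and C1 inhibitor are also made by astrocytes, fibroblasts and other stromal cells.

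The knockout removes a microRNA, and the sequence by which it would recognise a transcript was searched for in the annotated 3′ UTRs of the 9 genes. Mature miR-210-3p from RefSeq is printed 5′ to 3′ with its seed, bases 2 to 8, in capitals.
mmu-miR-210-3p: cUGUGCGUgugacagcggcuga
A transcript that pairs with the whole seed holds ACGCACA, and one that pairs with bases 2 to 7 holds CGCACA. Among 20981 mouse genes with an annotated coding 3′ UTR, 3.241% held the longer match and 8.598% the shorter one (GENCODE annotation of GRCm38). Of the 9 genes, 0 held either match. Both shares are low, so a count of 0 among 9 genes is nothing particular to complement genes. The longest 3′ UTRs searched were 2685 bases in C3ar1 and 1295 bases in C5ar1, and the shortest was 43 bases in C3. No match says only that these letters are not in the annotated UTRs. The microRNA itself was not analysed here, so its loss in KO mice was not checked.

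Total expected counts ran from 15436376 to 18118697 per library. The target of the isolation, Pdgfrb, had 688 to 987 CPM (counts scaled to the normalized library size) in WT sham and 751 to 1049 in WT HI, against 251 to 785 in KO sham and 194 to 596 in KO HI. Pericyte markers, 14 genes with Pdgfrb among them, summed to 8558 to 11780 CPM in WT sham, 6256 to 8737 in WT HI, 3059 to 8916 in KO sham and 1807 to 6030 in KO HI. Transcripts of other cells were present in every library as well. The summed level of 14 microglia markers, a list without complement genes, was 2559 to 3606 CPM in WT sham and 1596 to 4268 in WT HI, while it was 3373 to 5894 in KO sham and 5635 to 12160 in KO HI. The 9 fibroblast markers summed to 4281 to 4457, 2903 to 5554, 1065 to 3568 and 954.5 to 4158 CPM in the same order. The 8 choroid plexus markers summed to 1428 to 13130 CPM in WT sham and 256.8 to 9529 in WT HI. In KO sham they summed to 250.9 to 31150 CPM, and in KO HI to 1651 to 58140. The 8 astrocyte markers summed to 618.3 to 1743 CPM in WT sham and 855.2 to 1168 in WT HI. Their sums were 491.9 to 13700 CPM in KO sham and 755.2 to 5891 in KO HI. Neuron markers were high in 5 libraries (WT sham 2, KO sham 1 and 3, KO HI 2 and 3). WT HI 2 stood apart from the other WT HI libraries, with a microglia score (mean log2 CPM of the list) of 7.35 against 5.91 to 6.06 and a fibroblast score of 6.83 against 7.46 to 7.85. In such bulk libraries, fewer cells of a type and less RNA per cell cannot be told apart.

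The genes encoding C1q were the most abundant of the 9 in every group. Per kilobase of the longest coding transcript, C1qc, C1qb and C1qa stood at 249 ± 44.1, 214 ± 35.7 and 212 ± 45.8 CPM per kb in WT sham (SD, n = 3), and these neighbours did not differ beyond their spread. Serping1 followed at 48.9 ± 2.13, then C3ar1 at 13.2 ± 3.29, C4b at 8.74 ± 2.31, C5ar1 at 6.31 ± 1.65, C1ra at 4.34 ± 0.57 and C3 at 2.59 ± 0.27 CPM per kb. Of these lower steps, C3ar1 and C4b, C4b and C5ar1, and C5ar1 and C1ra lay within about the sum of their SDs of each other. In KO HI the means below C1q ran from C3ar1 (65.3 ± 21.7, n = 4) and C5ar1 (48.5 ± 19.98) to Serping1 (34.0 ± 23.6), C4b (17.4 ± 7.30), C3 (8.39 ± 2.54) and C1ra (5.94 ± 2.31). Each of these neighbours differed from the next by less than the sum of their SDs. In WT HI Serping1 stayed next to C1q at 85.7 ± 24.0 CPM per kb, with C5ar1 at 29.3 ± 12.4 and C3ar1 at 28.7 ± 14.4 below it; the last 2 did not differ beyond their spread.

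**Figure D1:**
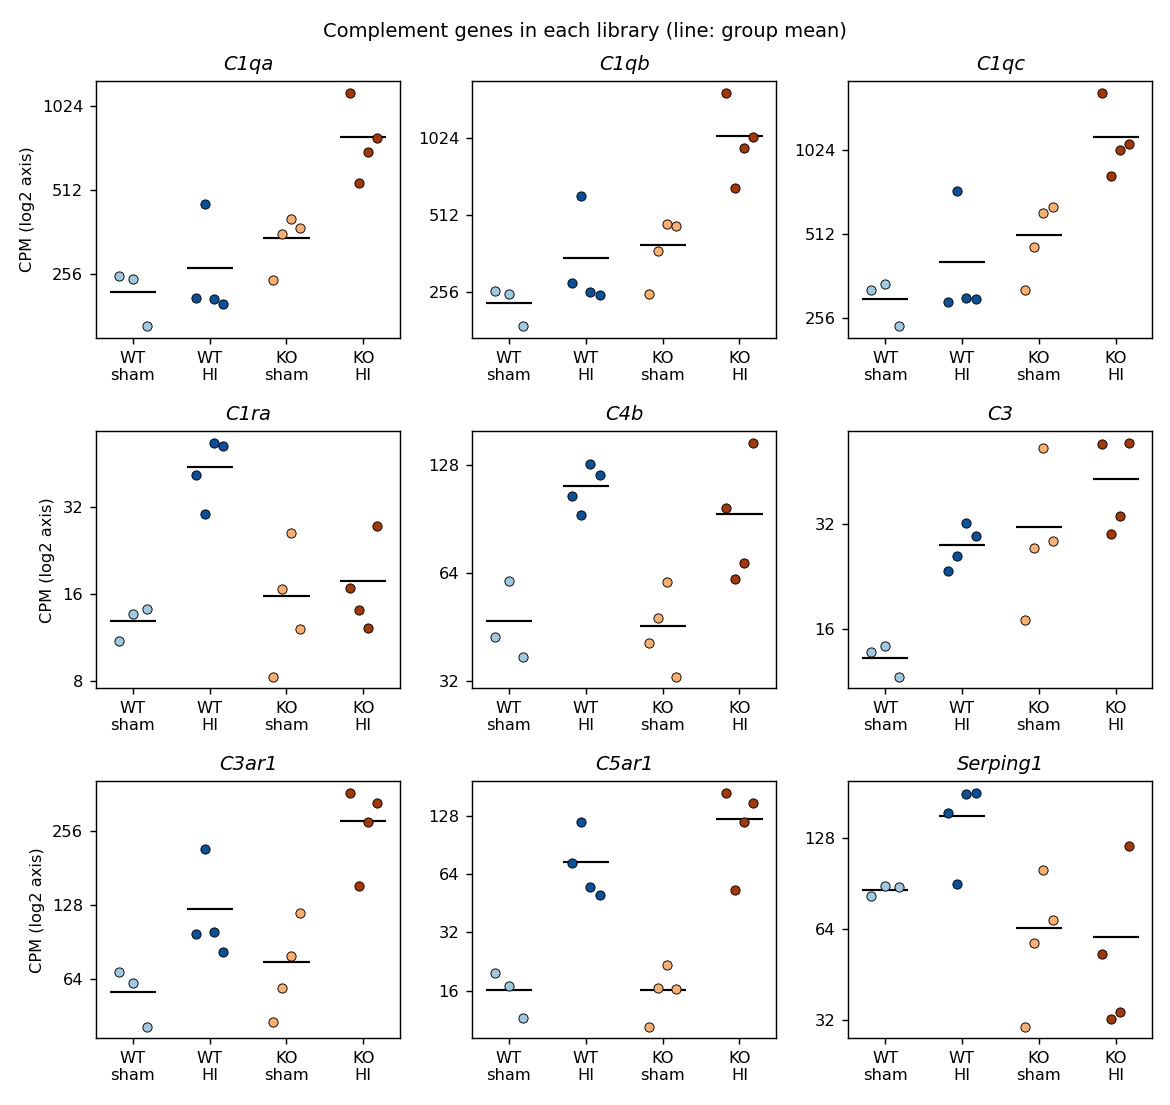
CPM of each of the 9 genes in every library on a log2 axis, by group, with the group mean as a line; points are libraries (n = 3 for WT sham and 4 for the other groups). The C1q genes in KO HI lie above all other groups, C1ra is highest in WT HI, and C5ar1 is higher after HI in both genotypes.

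Among calls, HI was followed by higher C5ar1 in both genotypes, by higher C1ra in WT, and by higher C1qa, C1qb, C4b and C3ar1 in KO. C4b in WT, at 1.25 log2 units, just missed the threshold, and no difference between the responses of the genotypes was called. After HI, KO libraries had more C1q transcript and less C1ra than WT libraries, whereas in sham mice no gene of the 9 was called. A gene was called at an edgeR adjusted p under 0.05 over all tested genes. With HI in WT 2 of the 9 rose (C1ra and C5ar1), where 1.38% of all tested genes were called higher, and 6 had all HI libraries above all sham libraries, where 15.9% of genes did. With HI in KO 5 rose (C1qa, C1qb, C4b, C3ar1 and C5ar1), against 4.88% of all genes, and 6 had groups that did not overlap, against 6.06%. In sham mice 0 were called in KO against WT, where 0.0135% of genes were called in either direction. That count was 0 by edgeR, DESeq2 and limma-voom. In edgeR 1 gene (C3) had an unadjusted p under 0.05, as did 1272 of all 14853 tested genes. C3 was also the 1 gene with every KO sham library above every WT sham library, as 4.63% of genes were. After HI 3 were higher in KO (the C1q genes), against 5.96% of all genes, and 1 was lower (C1ra), against 6.46%. The same 3 and the same 1 had groups without overlap, where 9.89% and 11.5% of all genes lay above and below. For the difference of responses 0 of 9 and 0% of all genes were called. An unadjusted edgeR p under 0.05 was found for 1 of the 9 (C1ra) and for 768 of all tested genes. DESeq2 called 22 genes in all and limma-voom 0, none of the 9 among them. The median log2 fold changes of the 9 were 1.07, 1.17, 0.40 and 0.73 in the pairwise comparisons in that order, beside -0.01, -0.06, 0.05 and 0.06 over all tested genes. The comparisons share groups: each of the 4 groups enters 2 of the pairwise ones.

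**Figure D2:**
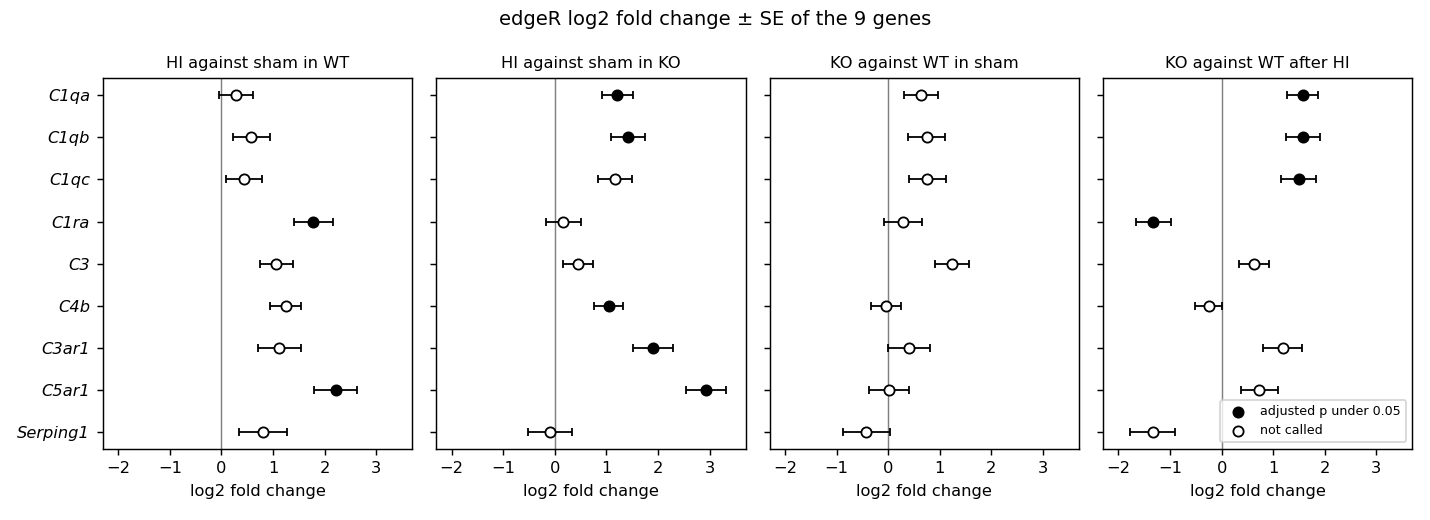
edgeR log2 fold change (x axis) with its SE for the 9 genes in the pairwise comparisons; filled points have an adjusted p under 0.05 over all 14853 tested genes. C5ar1 is filled in both HI comparisons, and after HI the C1q genes lie to the right of 0 and C1ra to the left.

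Without the 5 libraries with high neuron markers, 4 genes were called with HI in WT, 3 in KO, 0 in sham and 6 after HI, all higher. Over all genes that fit called 750, 2458, 5 and 3440 in the same order, in either direction. C4b, C3ar1 and C5ar1 kept their calls in KO, and C1qa (1.31, adjusted p = 0.0663) and C1qb (1.44, 0.0539) did not. After HI C3, C3ar1 (1.47, 0.0236) and C5ar1 (1.08, 0.0463) were called higher in addition to the C1q genes. In a fit of only the KO groups 0 of the 9 were called with HI, beside 16 of all genes, and in a fit of only the WT groups 5 were, beside 2443.

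The C1q genes were highest in KO mice after HI. C1qa stood at 250.2, 245 and 165 CPM in WT sham 1, 2 and 3 and at 208, 458, 207 and 199 CPM in WT HI 1, 2, 4 and 5. It stood at 244, 357, 403 and 373 CPM in KO sham 1, 3, 4 and 6 and at 1147, 542, 703 and 789.5 CPM in KO HI 1 to 4. Every KO HI library was thus above all other libraries, and WT HI 2 was the one WT library that came near them. C1qb had 188 to 259 CPM in WT sham and 250.04 to 610.02 in WT HI, with 252 to 472 in KO sham and 654 to 1537 in KO HI. C1qc had 238 to 338, 293 to 727, 322 to 638 and 823 to 1640 CPM in the same order. For both of these chains the groups lay in the same order as for C1qa, and KO HI overlapped with no other group.

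After HI, KO libraries had 2.81 to 2.98 times as much transcript of the C1q genes as WT libraries. The log2 fold changes were 1.57 ± 0.31 for C1qa (SE; edgeR adjusted p = 0.00938), 1.58 ± 0.33 for C1qb (adjusted p = 0.0124) and 1.49 ± 0.33 for C1qc (adjusted p = 0.0152). Without WT HI 2 they were 1.96 ± 0.26, 1.99 ± 0.29 and 1.94 ± 0.27. The call of C1qa held without any single library. Without WT HI 1, 4 or 5 in turn, C1qb had adjusted p-values of 0.05002 to 0.0529 and C1qc of 0.0565 to 0.0609, and C1qc had 0.0524 without KO HI 1. All 14 microglia markers were also called higher in this comparison, with a median log2 fold change of 1.78, and the microglia scores of the groups did not overlap (WT HI up to 7.35, KO HI from 7.88). With that score as a covariate in the fit, the values were -0.10 for C1qa, -0.23 for C1qb and -0.30 for C1qc (adjusted p = 0.689, 0.414 and 0.262). On that scale the C1q genes of KO HI were not above those of WT HI. Since the scores did not overlap, score and group can be told apart only in part, and that fit called 1 of all tested genes. Border-associated macrophages, which also make C1q, had 8 markers that summed to 872.1 to 1229 CPM in WT HI and 1212 to 2435 CPM in KO HI, with 4 of 8 called higher; their part in the C1q values was not tested.

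Within KO, HI libraries were above sham libraries for each C1q gene, with log2 fold changes of 1.21 ± 0.30 for C1qa (edgeR adjusted p = 0.0330), 1.42 ± 0.33 for C1qb (adjusted p = 0.0245) and 1.17 ± 0.33 for C1qc (adjusted p = 0.0505, just missing the threshold of 0.05). Within WT the values were 0.28 ± 0.33, 0.58 ± 0.36 and 0.44 ± 0.36, none of them called, and without WT HI 2 they were -0.10, 0.17 and -0.01. The call of C1qa in KO was lost without WT sham 2, KO sham 3, 4 or 6, or KO HI 1 or 4 (adjusted p = 0.0502 to 0.117), and that of C1qb without KO sham 3 (0.0655) or KO HI 1 (0.0888). The difference between the responses in KO and WT was 0.93 ± 0.44 for C1qa (adjusted p = 0.932), so it was not shown that KO and WT differed in their response. In sham mice KO stood above WT by 0.64 ± 0.33, 0.74 ± 0.36 and 0.76 ± 0.36 (adjusted p = 0.477 for each), and no C1q gene was called.

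Set against the microglia score, C1q transcript was higher after HI in both genotypes. The log2 sum of C1qa, C1qb and C1qc minus the microglia score was 2.45 to 2.53 in WT sham and 2.46 to 2.58 in KO sham, ranges that overlap. It was 3.10 to 3.33 in KO HI and 3.46 to 3.64 in WT HI, so all HI libraries were above all sham libraries, and WT HI above KO HI. In WT the score itself was lower after HI except in WT HI 2 (5.91 to 6.06, against 6.76 to 7.22 in sham). With HI in WT 11 of the 14 markers had a negative log2 fold change (median -0.53, 2 called lower). In KO 11 had a positive one (median 0.58, 3 called higher). A lower score thus enters the WT difference, and without the score no C1q gene was called in WT. In the fit with the microglia score as a covariate, HI against sham gave log2 fold changes of 0.84 for C1qa (adjusted p = 0.000755), 1.18 for C1qb (adjusted p = 0.00037) and 1.02 for C1qc (adjusted p = 0.00037) in WT. In KO it gave 0.69, 0.87 and 0.64, each called. The size of this difference depended on the marker. Against P2ry12, a purinergic receptor of resting microglia, the median log2 ratio of C1q was higher in HI than in sham by 2.78 in WT and 1.70 in KO, and against Siglech, a lectin of resting microglia, by 2.42 and 1.54. Against Trem2, a lipid receptor, the median moved by -0.04 in WT and -0.11 in KO, against its adaptor Tyrobp by -0.25 and -0.35, and against Fcrls, an Fc receptor-like protein, by 0.06 and 0.14. The ratio of C1q to Trem2, Tyrobp and Fcrls thus hardly moved, while that to P2ry12 and Siglech was higher after HI.

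**Figure D3:**
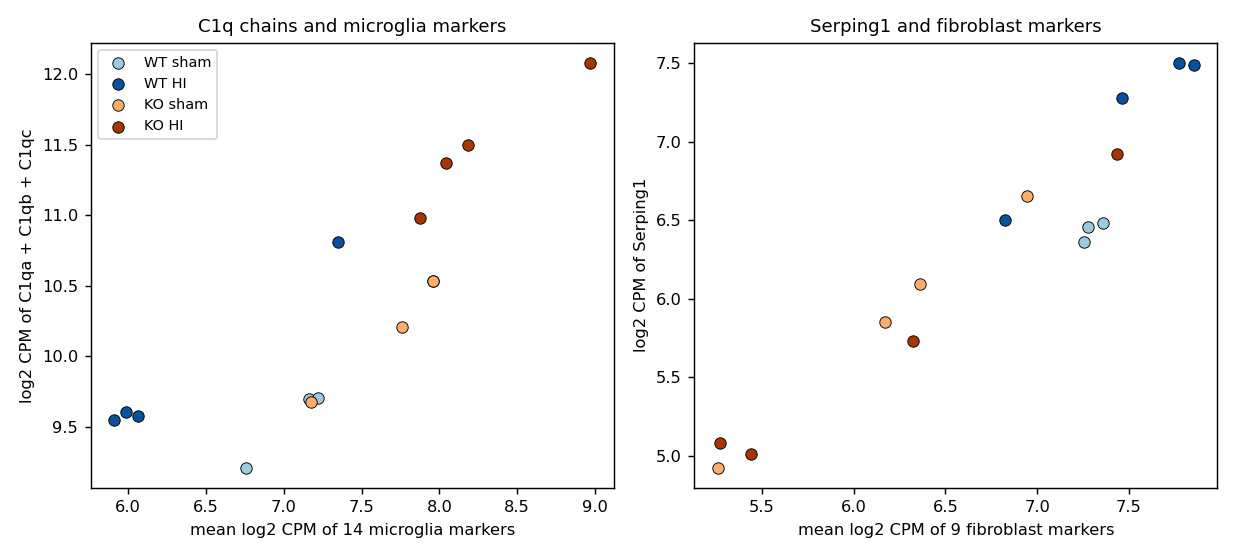
Left, log2 CPM of the summed C1q genes against the mean log2 CPM of 14 microglia markers; right, log2 CPM of Serping1 against the mean log2 CPM of 9 fibroblast markers; each point is 1 of 15 libraries, coloured by group. On the left sham libraries of both genotypes share a line and HI libraries lie above it; on the right WT sham libraries lie below the others.

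The genes encoding C1q lie side by side, within 18.7 kb of chromosome 4 (136880126 to 136898844, GRCm38.p6), and their levels moved together. Over the 15 libraries the Pearson r of log2 CPM was 0.990 to 0.992 between chains, and 0.971 to 0.984 after the group means were removed; all libraries share their depth scaling and cell mixture. The genes most like each chain were genes of macrophages and other leukocytes: Dock2, P2ry6 and Lair1 for C1qa (r = 0.994, 0.994 and 0.993), Coro1a, Irf8 and Vav1 for C1qb (0.997, 0.995 and 0.995), and Trem2, P2ry6 and Ptpn6 for C1qc (0.995, 0.994 and 0.993). The chains did not keep exactly the same proportions. C1qb made up 30.1% to 31.8% of C1q CPM in WT sham and 30.8% to 31.9% in KO sham, against 33.4% to 35.6% in WT HI; in KO HI its share was 32.4% to 35.7%. Every HI library thus had a larger share of C1qb than every sham library. C1qa made up 27.9% to 30.1%, 25.3% to 30.1%, 25.5% to 27.1% and 26.5% to 27.2% in the same order. Every WT sham library was above every HI library in this share, and KO sham overlapped the other groups. These shares compare CPM not divided by transcript length, so their change between libraries, and not their size, is the measurement.

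The RefSeq promoter windows of C1qb and C1qc, which moved together, are shown with that of C1ra, which did not follow them. Each window runs 5′ to 3′ on the strand of the gene from 250 bases before to 50 bases after its start. Capitals mark matches, on either strand, to GAGGAA, the core bound by ETS factors such as PU.1 of myeloid cells, or to TTCNNNGAA, a STAT type motif.
C1qb, chr4:136886151-136886450, minus strand: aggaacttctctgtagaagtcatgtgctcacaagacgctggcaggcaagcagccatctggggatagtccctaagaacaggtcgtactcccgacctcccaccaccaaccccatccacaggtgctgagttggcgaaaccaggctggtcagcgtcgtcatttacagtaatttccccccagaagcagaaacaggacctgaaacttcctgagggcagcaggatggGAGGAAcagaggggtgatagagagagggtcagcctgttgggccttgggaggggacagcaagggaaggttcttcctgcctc
C1qc, chr4:136892865-136893164, minus strand: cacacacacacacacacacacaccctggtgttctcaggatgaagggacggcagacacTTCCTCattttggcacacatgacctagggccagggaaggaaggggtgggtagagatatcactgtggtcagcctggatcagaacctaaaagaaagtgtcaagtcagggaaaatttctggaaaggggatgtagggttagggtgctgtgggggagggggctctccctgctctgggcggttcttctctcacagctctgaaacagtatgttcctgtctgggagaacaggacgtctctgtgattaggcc
C1ra, chr6:124512371-124512670, plus strand: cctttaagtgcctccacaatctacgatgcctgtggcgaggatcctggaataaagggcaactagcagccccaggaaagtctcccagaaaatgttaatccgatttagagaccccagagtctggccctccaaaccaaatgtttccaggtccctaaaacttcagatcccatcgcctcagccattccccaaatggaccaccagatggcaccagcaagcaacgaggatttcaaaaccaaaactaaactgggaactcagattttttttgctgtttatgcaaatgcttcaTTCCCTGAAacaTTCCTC
GAGGAA or its reverse complement was found in 28.276% of 32851 promoter windows, TTCNNNGAA in 8.298% and GAAANNGAA, an interferon-response motif, in 8.56%. C1qb and C1qc each held 1 GAGGAA match and neither of the other motifs. C1ra held 1 GAGGAA match and 1 TTCNNNGAA match, both after the start. Windows were found for 6 of the 9 genes. Those of C3 and C3ar1 held 0 matches to the 3 motifs, and that of C5ar1 held 1 match to GAAANNGAA. A match is a run of letters and does not show binding.

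C1ra, which encodes the first protease of the cascade (chromosome 6, 124512621 to 124523440), was highest in WT mice after HI. It stood at 10.98, 13.6 and 14.2 CPM in WT sham 1, 2 and 3, and at 41.3, 30.3, 53.6 and 52.1 CPM in WT HI 1, 2, 4 and 5. It stood at 8.27, 16.6, 26.1 and 12.1 CPM in KO sham 1, 3, 4 and 6, and at 16.8, 14.1, 12.2 and 27.6 CPM in KO HI 1 to 4. Every WT HI library was above every other library, while the KO groups overlapped. Its near-identical neighbour C1rb was listed at up to 0.22 CPM, and the way reads were split between them is not given in the sources used here.

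In WT, C1ra rose by 1.78 ± 0.38 log2 units with HI (edgeR adjusted p = 0.0311), and in KO its log2 fold change was 0.17 ± 0.33 (adjusted p = 0.832). After HI it was lower in KO than in WT by 1.32 log2 units (SE 0.34, adjusted p = 0.0243). The difference of the responses was -1.61 ± 0.49 (edgeR adjusted p = 0.834), and was not called. The rise in WT was lost without any 1 of the WT sham libraries (adjusted p = 0.125 to 0.173) or without WT HI 1, 4 or 5 (0.0707 to 0.0788). The lower level in KO HI was lost without WT HI 1, 4 or 5 or KO HI 1, 2 or 3 (0.0518 to 0.0738) and in a fit that left out the 5 libraries with high neuron markers (log2 fold change -1.02, adjusted p = 0.0722). Fibroblast markers moved with this comparison: 9 of 9 had a negative log2 fold change, 0 of 9 were called, and the median was -1.19. Pericyte markers (14 of 14 negative, 4 called lower, median -1.10) and endothelial markers (10 of 10 negative, 8 called lower, median -1.09) were lower as well. Of these lists only the fibroblast score was entered in a fit, and the part of the others in the C1ra value was not tested. With the fibroblast score as a covariate, a fit chosen after the data were seen, the log2 fold change of C1ra after HI was -0.45 (adjusted p = 0.241), and its rise in WT was 1.62 and still called. Relative to the fibroblast score, log2 C1ra was -3.78 to -3.44 in WT sham and -2.11 to -1.90 in WT HI, and it was -2.75 to -2.11 in KO sham and -2.64 to -1.61 in KO HI. On that scale every WT sham library was below every library of the other groups. Genes most like C1ra over the 15 libraries were Adh7, a retinol and alcohol dehydrogenase (r = 0.953), Fblim1, an adhesion adaptor (0.942), and Il6st, the shared receptor chain of the interleukin-6 family (0.942).

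Serping1, the inhibitor of C1r and C1s (chromosome 2, 84765360 to 84775444), had its highest values in WT HI as well. It stood at 82.1, 89.2 and 87.9 CPM in WT sham and at 155, 90.4, 179.6 and 181 CPM in WT HI 1, 2, 4 and 5. It stood at 30.3, 57.6, 101 and 68.3 CPM in KO sham 1, 3, 4 and 6, and at 52.9, 32.2, 33.8 and 121 CPM in KO HI 1 to 4. The WT groups did not overlap, although WT HI 2 lay just above the highest WT sham library, and the KO groups ranged widely and overlapped. None of its comparisons was called: the log2 fold changes were 0.81 ± 0.47 with HI in WT (edgeR adjusted p = 0.535), -0.10 ± 0.42 with HI in KO (0.925), -0.43 ± 0.45 for KO against WT in sham (0.643) and -1.34 ± 0.43 after HI (0.0585). Its level followed fibroblast markers, with a Pearson r of 0.962 with the fibroblast score over 15 libraries and 0.989 within groups. Serping1 also followed the mean log2 CPM of the pericyte markers (0.859 and 0.881) and of the endothelial markers (0.810 and 0.712). Against that of the neuron markers it ran the other way (-0.805 and -0.782), so the likeness is not particular to fibroblasts. The genes most like it were Dcn, Adamts2 and Fstl1 (r = 0.982, 0.974 and 0.973), which encode a matrix proteoglycan, a procollagen protease and a secreted glycoprotein. With the fibroblast score in the fit, the log2 fold change after HI was -0.23 (adjusted p = 0.234) and the rise with HI in WT was 0.59 (adjusted p = 0.00332). Relative to that score, log2 Serping1 was -0.89 to -0.82 in WT sham and -0.36 to -0.18 in WT HI, and it was -0.34 to -0.27 in KO sham and -0.59 to -0.19 in KO HI; again WT sham lay below all others. C1ra and Serping1 varied together, with r = 0.832 over 15 libraries and 0.911 within groups.

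C4b, which encodes the substrate of C1s (chromosome 17, 34728139 to 34743902), rose with HI in KO mice and just missed the threshold in WT mice. It stood at 42.6, 61.0 and 37.4 CPM in WT sham and at 105, 92.8, 129 and 120.4 CPM in WT HI 1, 2, 4 and 5. It stood at 40.8, 48.0, 60.7 and 33.0 CPM in KO sham 1, 3, 4 and 6, and at 97.6, 61.6, 68.3 and 148 CPM in KO HI 1 to 4. Every HI library was above every sham library, although KO HI 2 was barely above the highest of them, WT sham 2. The log2 fold change with HI was 1.04 ± 0.27 in KO (edgeR adjusted p = 0.0385) and 1.25 ± 0.30 in WT (adjusted p = 0.0550, not called). The difference of the responses was -0.21 ± 0.40, with a 95% interval of -1.07 to 0.65. The call in KO was lost without WT sham 1 or 3, WT HI 1, 4 or 5, KO sham 1, 3 or 6, or KO HI 1 or 4 (adjusted p = 0.0508 to 0.103). KO against WT gave -0.04 ± 0.29 in sham and -0.25 ± 0.27 after HI, with 95% intervals of -0.67 to 0.59 and -0.83 to 0.33. Reads of C4b and its near-identical copy C4a can be split between them; C4a took 0.47% to 1.80% of their summed counts. The genes most like C4b were Cfb, the protease of the alternative pathway (r = 0.950), Saa3, an acute-phase protein (0.920), and Rtn4 (0.919).

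C3, the protein on which all activation routes meet (chromosome 17, 57203967 to 57228136), was lowest in WT sham. It stood at 13.8, 14.4 and 11.7 CPM in WT sham and at 23.5, 25.9, 32.2 and 29.7 CPM in WT HI 1, 2, 4 and 5. It stood at 17.1, 27.3, 52.6 and 28.5 CPM in KO sham 1, 3, 4 and 6, and at 54.1, 30.0, 33.7 and 54.5 CPM in KO HI 1 to 4. Every WT sham library was below all libraries of the other 3 groups, which overlapped one another. No comparison was called: the log2 fold change was 1.24 ± 0.33 for KO against WT in sham (edgeR adjusted p = 0.477), 1.07 ± 0.32 with HI in WT (adjusted p = 0.132), 0.46 ± 0.29 with HI in KO (0.402) and 0.63 ± 0.29 after HI (0.159). With the fibroblast score in the fit, C3 was called higher in KO sham (1.75, adjusted p = 0.00921), in WT HI against sham (0.97, 0.0157) and in KO against WT after HI (1.33, 0.0214). That covariate was chosen after the data were seen. In sham its ranges did not overlap (7.26 to 7.36 in WT, 5.26 to 6.94 in KO), so score and genotype can be told apart only in part. None of the other fits called C3 in sham. Without the 5 libraries with high neuron markers it was called after HI (0.94, 0.0167). The gene most like it was Tnfrsf1b, a receptor for tumour necrosis factor (r = 0.941), a weaker likeness than those of the C1q genes.

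C5ar1 had the largest HI change of the 9 genes in both genotypes. It (chromosome 7, 16246743 to 16259540) stood at 19.7, 16.9 and 11.5 CPM in WT sham and at 73.1, 119, 54.7 and 50.1 CPM in WT HI 1, 2, 4 and 5. It stood at 10.4, 16.4, 21.7 and 16.3 CPM in KO sham 1, 3, 4 and 6, and at 169, 53.3, 119.9 and 151 CPM in KO HI 1 to 4. All HI libraries were above all sham libraries, and the HI groups overlapped. With HI it rose by 2.21 ± 0.42 log2 units in WT (4.63-fold, edgeR adjusted p = 0.0176) and by 2.93 ± 0.39 in KO (7.60-fold, adjusted p = 0.00176). The call in WT was lost without any 1 of the WT sham libraries (adjusted p = 0.072 to 0.111), and that in KO held without any single library. KO against WT gave 0.02 ± 0.39 in sham and 0.73 ± 0.36 after HI (adjusted p = 0.182), and the difference of the responses was 0.71 ± 0.53 with a 95% interval of -0.43 to 1.86.

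C3ar1 (chromosome 6, 122847140 to 122856157) stood at 67.9, 61.3 and 40.8 CPM in WT sham and at 97.2, 215, 99.2 and 82.1 CPM in WT HI 1, 2, 4 and 5. It stood at 42.7, 58.8, 78.9 and 119 CPM in KO sham 1, 3, 4 and 6, and at 365, 152, 277 and 331 CPM in KO HI 1 to 4. The HI libraries of each genotype were above its sham libraries, and WT HI 2 was above KO HI 2. With HI it rose in KO by 1.91 ± 0.39 log2 units (edgeR adjusted p = 0.0132), a call that held without any single library, while in WT the value was 1.12 ± 0.42 (adjusted p = 0.243). KO against WT was 1.19 ± 0.38 after HI (adjusted p = 0.0570), and 1.60 ± 0.36 without WT HI 2 (adjusted p = 0.0135). With the microglia score in the fit, KO against WT after HI was -0.69 for C3ar1 and -1.001 for C5ar1, neither called, and the rise with HI in WT was called for both, at 1.76 (adjusted p = 0.00218) and 2.81 (adjusted p = 0.00037).

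Within a library the balance of the receptors shifted toward C5ar1 after HI. The ratio of C3ar1 to C5ar1 CPM was 3.44 to 3.63 in WT sham and 3.58 to 7.29 in KO sham, against 1.33 to 1.81 in WT HI; in KO HI it was 2.16 to 2.85. Every HI library was below every sham library, and WT HI was below KO HI without overlap. The genes most like C3ar1 were Milr1, Ly9 and Sgpl1 (r = 0.991, 0.991 and 0.990), and those most like C5ar1 were Lilrb4a, Cd72 and Cd14 (0.985, 0.984 and 0.982), most of them leukocyte surface proteins. Neutrophils and monocytes also carry C5ar1. Their 12 markers summed to 8.999 to 19.7 CPM in WT sham and 15.4 to 53.4 in WT HI; they summed to 7.09 to 19.97 CPM in KO sham and 18.6 to 79.99 in KO HI. Among these markers Ly6g, which defines neutrophils, had at most 1 count in any library, while S100a8 reached 248 counts and S100a9 409. With HI 9 of the 10 markers tested had a positive log2 fold change in each genotype, with medians of 1.54 in WT and 2.32 in KO. Of the 10, 4 were called higher with HI in KO and 0 in WT. The part of these markers' cells in the change of C5ar1 was not tested.

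**Figure D4:**
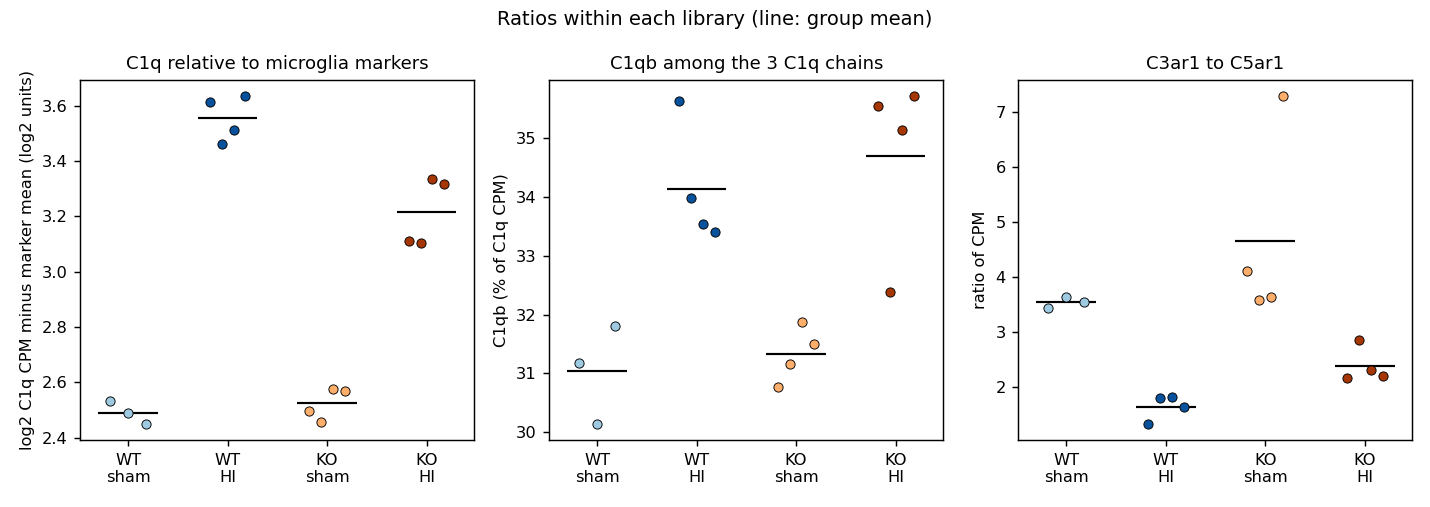
Ratios within each library, by group, with group means as lines: the log2 sum of C1q CPM minus the microglia score, C1qb as a percentage of C1q CPM, and C3ar1 CPM over C5ar1 CPM. In all panels the sham and HI libraries do not overlap; the highest sham ratio of the receptors, 7.29, is KO sham 6.

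**Figure D5:**
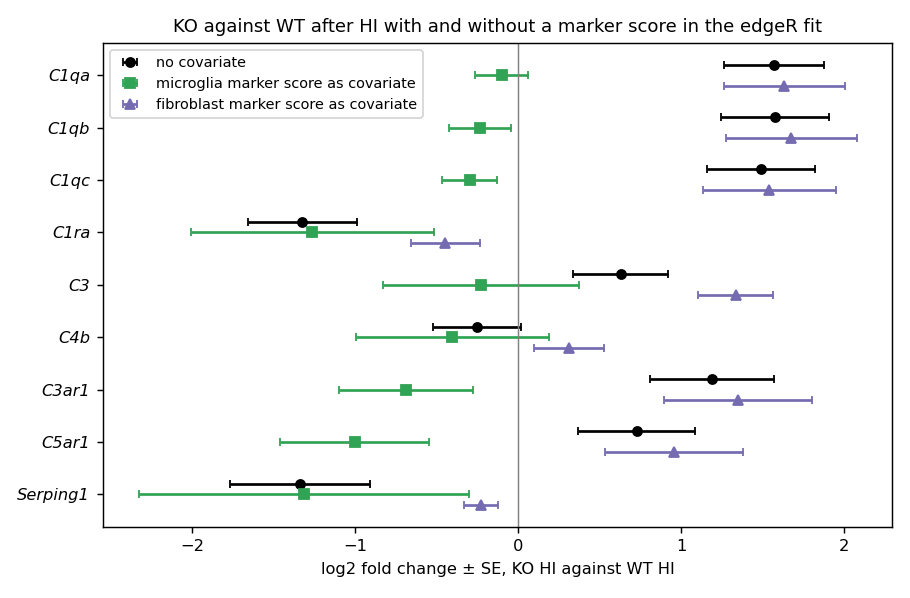
edgeR log2 fold change with its SE for KO against WT after HI in the 9 genes, from the fit without a covariate and from fits with the microglia or the fibroblast marker score as a covariate. The C1q genes move from about 1.5 to just below 0 with the microglia score, and C1ra moves from -1.32 to -0.45 with the fibroblast score.

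The rest of the pathway was read from lists of 45 other complement genes, of which 30 were tested. With HI in WT 0 of the 30 were called by edgeR, and 7 had an unadjusted p under 0.05, as did 1901 of all 14853 tested genes. DESeq2 called 4 of the 30 and limma-voom 1, beside 782 and 281 of all genes. With HI in KO 3 of the 30 rose, where 4.88% of all tested genes did. These were Itgam and Itgb2, the chains of the C3 fragment receptor CR3 (1.2003 ± 0.33 and 1.2999 ± 0.31 log2 units, edgeR adjusted p = 0.0440 and 0.0253), and C7, a terminal component with less than 1 CPM (2.18 ± 0.60, 0.0470). In sham and in the difference of responses 0 of the 30 were called by edgeR, DESeq2 or limma-voom. There 5 and 3 had an unadjusted p under 0.05 in edgeR, beside 1272 and 768 of all tested genes. After HI 4 of the 30 were higher in KO than in WT and 3 lower, where 5.96% and 6.46% of all tested genes were. With the microglia score in the fit 0 of the 30 were called, beside 1 of all tested genes. That fit called almost no gene of any kind, so the 0 says nothing particular to complement genes. Itgam stood at 163 ± 74.1 CPM in WT HI and 477 ± 173 in KO HI (SD, n = 4; 1.55 ± 0.33, adjusted p = 0.0126), and Itgb2 at 51.2 ± 21.6 and 132 ± 45.6 (1.37 ± 0.31, 0.0153). C5ar2, the alternative C5a receptor, stood at 4.02 ± 1.96 and 11.5 ± 3.36 CPM (1.52 ± 0.33, 0.0128), and Fcna, a lectin of macrophages that starts the lectin pathway, at 8.53 ± 0.69 and 25.5 ± 11.5 (1.58 ± 0.33, 0.0122). Of the 5 tested receptors on the list, 3 were called higher and 1, Cd93, lower.

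The lower genes after HI were Cfi, Cd93 and Masp2. Cfi, the protease that inactivates C3b and C4b, stood at 4.19 ± 0.56 CPM in WT HI and 1.10 ± 0.35 in KO HI (-1.92 ± 0.32, edgeR adjusted p = 0.00595). Cd93, a surface protein of endothelium once described as a C1q receptor, stood at 908 ± 64.1 and 478 ± 133 CPM (-0.92 ± 0.26, 0.0366), in a comparison in which 8 of 10 endothelial markers were called lower; the part of endothelial transcripts in that change was not tested. Masp2, a lectin pathway protease, was near the detection limit, at 0.89 ± 0.50 and 0.11 ± 0.14 CPM (-2.89 ± 0.79, 0.0320). Of the 10 tested inhibitors on the list, Cfi was the 1 that was called, and of the 6 tested alternative and terminal components 0 were called after HI.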

How the data were processed

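RNA-seq libraries of isolated PDGFRβ+ cells were used, 15 in 4 groups. The authors deposited expected counts per gene, not normalized, in a single table. No unit stands in its header; it was taken from the values (3.12% to 3.92% of a library's were fractional) and from RSEM 1.3.1, named in the submitters' processing notes with Bowtie, Bowtie2 2.4.4, HISAT2 2.1.0, DESeq2 1.4.5 and build mm39. What each tool did, and any strand setting, is not given in the sources used here. Of 65535 lines 17892 held values, so the table may have been shortened, and 17862 of these were matched to a symbol.

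Counts were rounded and 14853 genes passed filterByExpr. A single fit of 4 group means with edgeR 4.0.16 in R 4.3.3 (TMM, glmQLFTest, biological coefficient of variation 38.6%) gave log2 fold changes, with the SE derived from the F value, and Benjamini-Hochberg adjusted p-values over all tested genes, called under 0.05. Counting error is small beside the spread of libraries at these depths. CPM were scaled to normalized library sizes, and scores and correlations use log2 CPM with a prior count of 2. No pair of replicates was alike within counting noise: the chi-square per degree of freedom was 11.7 to 48.7 in WT pairs and 46.4 to 400 in KO pairs. The labels name no batch.

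The genes, lists and alternatives were chosen with earlier results of these data known. The text names the 9 genes, every other listed complement gene that was called, and for each of the 9 the 3 tested genes with the highest r (for C3 only the first is reported here); marker genes set against C1q were named after their values were seen. Alternatives were DESeq2 1.42.0, limma-voom (limma 3.58.1), other size factors, no filter, fits of 2 groups, a replicate block, marker scores as covariates (the fibroblast score after the data were seen) and libraries left out. The script was tested on simulated data. Positions, lengths and promoters are from RefSeq and GENCODE on GRCm38.p6, which predates the build named in those notes.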

Additional observations from a re-analysis of the deposited data

Results flagged for a closer look

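In groups of 4 libraries, 1 library stood so far from the other 3 that the gap took up most of the group's range in 8 of 63 cases examined. Chance alone gives about 1 in 20 for a single case. The cases share libraries and genes that vary together, so the count of 8 cannot be set against that rate. In 6 of the 8 cases the library was WT HI 2, above the other WT HI libraries. C1qa stood at 457.79 CPM there against 199 to 208, C1qb at 610.02 against 250.04 to 278, C1qc at 727.25 against 293 to 301, and C3ar1 at 215.47 against 82.1 to 99.2. Itgam stood at 273.79 CPM against 121 to 128 and Itgb2 at 83.415 against 37.5 to 42.5. The microglia score of that library, 7.35 against 5.91 to 6.06, was high as well; its part in these values was not tested.

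The remaining cases were ratios. C1qb made up 32.38% of C1q CPM in KO HI 2, below the other KO HI libraries at 35.15% to 35.72%. C3ar1 over C5ar1 was 7.286 in KO sham 6, above the other KO sham libraries at 3.579 to 4.106.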

How the results depend on the processing

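Counts of called genes among the 9 depended on the fit. With HI in WT (2 called) they were 4 by DESeq2, 5 in a fit of the 2 groups, 4 without the 5 libraries with high neuron markers, 7 with the microglia score, 5 with the fibroblast score and 0 to 4 with 1 library left out. With HI in KO (5 called) they were 0 in a fit of the 2 groups, 3 without the 5 libraries and 2 to 6 with 1 left out. In sham (0 called) the fibroblast score gave 1. After HI (4 called) the microglia score gave 0, the absence of the 5 libraries 6, and 1 library left out 1 to 6. The cause of these changes was not tested. With HI in WT 271 of all genes were called, against 782 by DESeq2, 2443 in the fit of the 2 groups and 750 without the 5 libraries. The microglia and fibroblast scores gave 742 and 673 there, and 1 library left out 48 to 554. HI in KO gave 1041, against 16 in the fit of the 2 groups, 2458 without the 5 libraries and 355 to 1927 with 1 left out. In sham the fibroblast score gave 10, against 2. After HI the count was 1844, against 1 with the microglia score, 3440 without the 5 libraries and 481 to 3605 with 1 left out.

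Among the 30 other complement genes, HI in WT (0 called) gave 1 with other size factors, 4 by DESeq2, 1 by limma-voom, 6 in the fit of the 2 groups, 4 without the 5 libraries, 6 with the microglia score, 4 with the fibroblast score and 0 to 2 with 1 library left out. HI in KO (3 called) gave 8 by DESeq2, 1 without a filter, 0 in the fit of the 2 groups, 5 without the 5 libraries, 8 with the fibroblast score and 0 to 3 with 1 left out. After HI (7 called) the microglia score gave 0, beside 1 of all genes, and leaving 1 out 2 to 9. Over all genes other size factors gave 308 and limma-voom 281 with HI in WT. With HI in KO DESeq2 gave 1932 of all genes, the fit without a filter 868 and the fibroblast score 1979.

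A fit with the replicate block, which pairs libraries of the same number, called 0 of the 9 in each comparison, 1 of the 30 with HI in KO and 0 of the 30 after HI, and 16, 73, 1, 21 and 0 of all genes. The labels do not say whether the numbers pair the libraries. Same-numbered deviations had r of 0.279 and 0.197 in WT, -0.784, 0.259 and 0.793 in KO, -0.613 and 0.408 in sham, and 0.0426, 0.283 and 0.403 after HI. Libraries of unlike number were not compared in this way, so these values cannot decide whether a pairing exists.

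The log2 fold changes that changed sign included those of the C1q genes after HI with the microglia score. With HI in KO Serping1 was 0.018 with the block, 0.028 without the 5 libraries and -0.72 to 0.20 with 1 left out, and C1ra -0.15 to 0.52 with 1 left out. In WT, leaving 1 out gave -0.10 to 0.43 for C1qa and -0.0061 to 0.58 for C1qc. In sham C1ra was -0.010 with the block and -0.066 to 0.50 with 1 left out; C4b 0.22 without the 5 libraries, 0.47 with the fibroblast score and -0.21 to 0.19 with 1 left out; C5ar1 -0.021 with the block, -0.60 with the microglia score and -0.18 to 0.19 with 1 left out; C3ar1 -0.31 with the microglia score; Serping1 0.49 with the fibroblast score. After HI the microglia score gave -0.10, -0.23, -0.30, -0.23, -0.69 and -1.001 for C1qa, C1qb, C1qc, C3, C3ar1 and C5ar1, and C4b was 0.11 without the 5 libraries and 0.31 with the fibroblast score. In the difference of responses the microglia score gave -0.15, -0.31, -0.39, -0.38 and -0.40 for C1qa, C1qb, C1qc, C3ar1 and C5ar1. The lowest level of any of the 9 genes in a library was 8.27 CPM, for C1ra in KO sham 1.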
